A study of Mus musculus with 18 samples.

Results

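*Map3k9*, *Map3k10*, *Map3k11*, *Map3k12* and *Map3k13* are 5 genes of the mixed lineage kinase family, and all 5 were measured at E11.5 in mouse mesoderm, in the neural tube (NT) and in forelimb buds (FL). They were chosen by name, as 5 of the 12064 genes of the mesoderm table and 5 of the 11231 genes of the NT and FL table, and all 5 are present in both. The related genes *Map3k20* and *Map3k21* were not analysed here. The choice was made with their mesoderm log2 TE (defined below) and TE-low calls already known, so their mesoderm values are given as a description without a test. Tests are given for NT and FL, whose libraries are separate from those of the mesoderm. The choice may still favour genes of low TE in every tissue, so counts of TE-low members in NT and FL are descriptions as well. The 18 libraries are 3 RNA-Seq and 3 Ribo-Seq replicates of each of the 3 tissues. RNA-Seq counts mRNA, whereas Ribo-Seq counts ribosome-protected fragments (RPFs), the pieces of mRNA that a ribosome covers. Translational efficiency (TE) is the ratio of RPFs to mRNA on the coding sequence (CDS) of a gene, given as log2 relative to the median gene of the same tissue. The mesoderm was the GFP+ cells sorted from embryos that were R26-mTmG flox/+ and carried Tg(T-cre)1LWD/J, in which Cre driven by the T promoter switches a membrane Tomato reporter to membrane GFP in descendants of the primitive streak. NT and FL were dissected from the same wild-type FVB embryos, with the neural tube freed from the somites between the hindlimb and the rhombomeres. Dissection and sorting media contained cycloheximide. The number of embryos behind a library is not given in the sources used here, so p-values measure the spread between these libraries.

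Mixed lineage kinases are MAP kinase kinase kinases (MAP3Ks), the upper tier of a relay in which each kinase phosphorylates the next. They phosphorylate the MAP2Ks MKK4 (*Map2k4*) and MKK7 (*Map2k7*), which in turn activate the JNK kinases (*Mapk8*, *Mapk9* and *Mapk10*). *Map3k9* (MLK1), *Map3k10* (MLK2) and *Map3k11* (MLK3) carry an SH3 domain, a kinase domain, a leucine zipper and a CRIB motif that binds active Rac and Cdc42. *Map3k12* (DLK) and *Map3k13* (LZK) have a kinase domain and leucine zippers without the SH3 domain and the CRIB motif, and are best known for signalling in neurons, where DLK acts in axon development and in the response to axon injury.

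The genes lie on 5 different chromosomes of GRCm38 (mm10). *Map3k9* spans chr12:81721010-81781175 on the minus strand, *Map3k10* chr7:27656375-27674598 on the minus strand and *Map3k11* chr19:5688742-5702865 on the plus strand. *Map3k12* spans chr15:102497646-102517064 on the minus strand and *Map3k13* chr16:21794346-21933439 on the plus strand. Their CDSs are 3234, 2823, 2553, 2667 and 2880 nt long in the order of their numbers, where the median over 20238 coding genes of the annotation is 1194 nt. None of the 28-nt windows of any of the 5 CDSs occurs in a transcript of another gene, so reads of that length can be told apart between the members.

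The 5′ leaders of all 5 transcripts are longer than the median of 178 nt. They measure 301 nt in *Map3k9*, 570 nt in *Map3k10*, 824 nt in *Map3k11*, 487 nt in *Map3k12* and 312 nt in *Map3k13*, with a GC content of 82.4%, 72.6%, 59.2%, 64.1% and 54.5%. Each leader holds upstream AUGs (uAUGs), start codons ahead of the CDS, as do 55.8% of all coding genes. There are 2 in *Map3k9*, 3 in *Map3k10*, 6 in *Map3k11*, 5 in *Map3k12* and 6 in *Map3k13*. For *Map3k12* and *Map3k13* this number depends on the transcript, from 0 to 6 over 3 principal transcripts and from 3 to 6 over 2. The 21 bases around each main start codon are printed because the surroundings of a start codon are a known feature of initiation, with the start codon in capitals and 12 bases before it:
Map3k9: accagccgctccATGgagtcc
Map3k10: ggcccctcccccATGgaggag
Map3k11: cggctccctgccATGgagccc
Map3k12: gctccagaggccATGgcctgc
Map3k13: cctcatggcacaATGgccaac
All 5 have a G at position +4, directly after the start codon, which 49.6% of coding genes have. *Map3k11*, *Map3k12* and *Map3k13* have a purine at position -3, the favoured base there, whereas *Map3k9* and *Map3k10* are among the minority without it (84.5% of coding genes have it). The printed stretch of *Map3k13* also contains its last uAUG, which starts 8 nt before the main start codon and is out of frame with it. The nearest uAUG of *Map3k9* starts 16 nt before its start codon, also out of frame. In *Map3k10*, *Map3k11* and *Map3k12* that distance is 125, 100 and 88 nt. These features are descriptions of the annotated transcripts, and no reads on the leaders were analysed here.

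The Ribo-Seq libraries of replicate 3 stood apart in NT and FL. Pearson's r of log2(normalized reads + 1) across genes was 0.976 between FL Ribo-Seq replicates 1 and 2, but 0.886 and 0.896 between these and replicate 3, and in NT it was 0.989 against 0.933 and 0.934. The SD over genes of log2 TE was 1.59 and 1.54 in FL replicates 1 and 2 but 0.864 in replicate 3, and in NT it was 0.908 and 0.793 but 1.17. Results on NT and FL are therefore given with all 12 libraries and again without both replicate 3 Ribo-Seq libraries, an alternative chosen after seeing the data. The tissue labels were also checked against marker genes in RNA-Seq. The summed level of 6 neuronal and neural progenitor markers lay between 85017 and 134975 normalized reads in NT and between 12760 and 14176 in FL, and all 6 (*Dcx*, *Nefm*, *Ina*, *Ncam1*, *Nes*, *Map1b*) were lower in FL at 2-fold and an adjusted p under 0.05. The sum of 6 limb and somite mesenchyme markers lay between 28219 and 34686 in FL and between 3258 and 3649 in NT, with 4 of 6 higher in FL. None of 4 endothelial markers differed by this rule, nor did *Csf1r* of macrophages or *Epcam* of epithelium, and of 2 markers of glia and neural crest derivatives *Erbb3* was higher in FL. *Epcam* was uneven in NT RNA-Seq, with 659.0, 96.0 and 106.7 normalized reads in replicates 1, 2 and 3 against 537.3 to 689.6 in FL. In Ribo-Seq it lay between 60.9 and 187.0 in NT and between 1215 and 1899 in FL. The cause of the high NT RNA-Seq replicate 1 was not tested. In the mesoderm, 7 mesenchyme markers summed to between 17305 and 20480 normalized reads and 7 neuronal markers to between 15918 and 21275. No marker was at 0 in all libraries of a tissue.

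In the mesoderm, 4 of the 5 members were TE-low, meaning that TE lay at least 3-fold below the median gene at an adjusted p under 0.05, a call that 10.9% of all genes of the table received. Since these calls were known when the members were chosen, nothing is read from that count. *Map3k10* had the lowest TE of the 5 members, *Map3k9*, *Map3k11* and *Map3k12* formed a middle group, and *Map3k13* was nearest to the median gene.

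*Map3k10* had 1445, 2433 and 2288 normalized reads in mesoderm RNA-Seq replicates 1, 2 and 3, and 90.9, 76.8 and 169.4 in Ribo-Seq. Its log2 TE was -4.27 ± 0.63 (SD, n = 3), 19.2-fold below the median gene, and 0.365% of all genes had a lower value. Its 3 replicates lay between -4.97 and -3.78. *Map3k11* had mRNA of the same order, 1406, 2357 and 1978 normalized reads, with 362.0, 387.9 and 467.5 in Ribo-Seq and a log2 TE of -2.25 ± 0.32. The ranges of these genes overlapped in mRNA but not in RPFs, where *Map3k11* was higher in every replicate.

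*Map3k9* was a scarce mRNA in the mesoderm, with 154.3, 225.5 and 191.1 normalized reads. Its Ribo-Seq libraries held 31, 10 and 25 reads before normalization, so its log2 TE of -2.32 ± 0.93 was the least precise of the 5 members. *Map3k12* had 1836, 1567 and 1528 normalized reads in RNA-Seq and 557.1, 282.1 and 440.4 in Ribo-Seq, with a log2 TE of -2.03 ± 0.39. *Map3k13* had as little mRNA as *Map3k9*, 211.5, 181.1 and 170.1 normalized reads, but 111.7, 83.0 and 85.8 in Ribo-Seq. The resulting log2 TE was -1.04 ± 0.08, or 2.05-fold below the median gene, outside the 3-fold limit. *Map3k12*, at 4.08-fold, was the member just inside that limit.

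**Figure D1:**
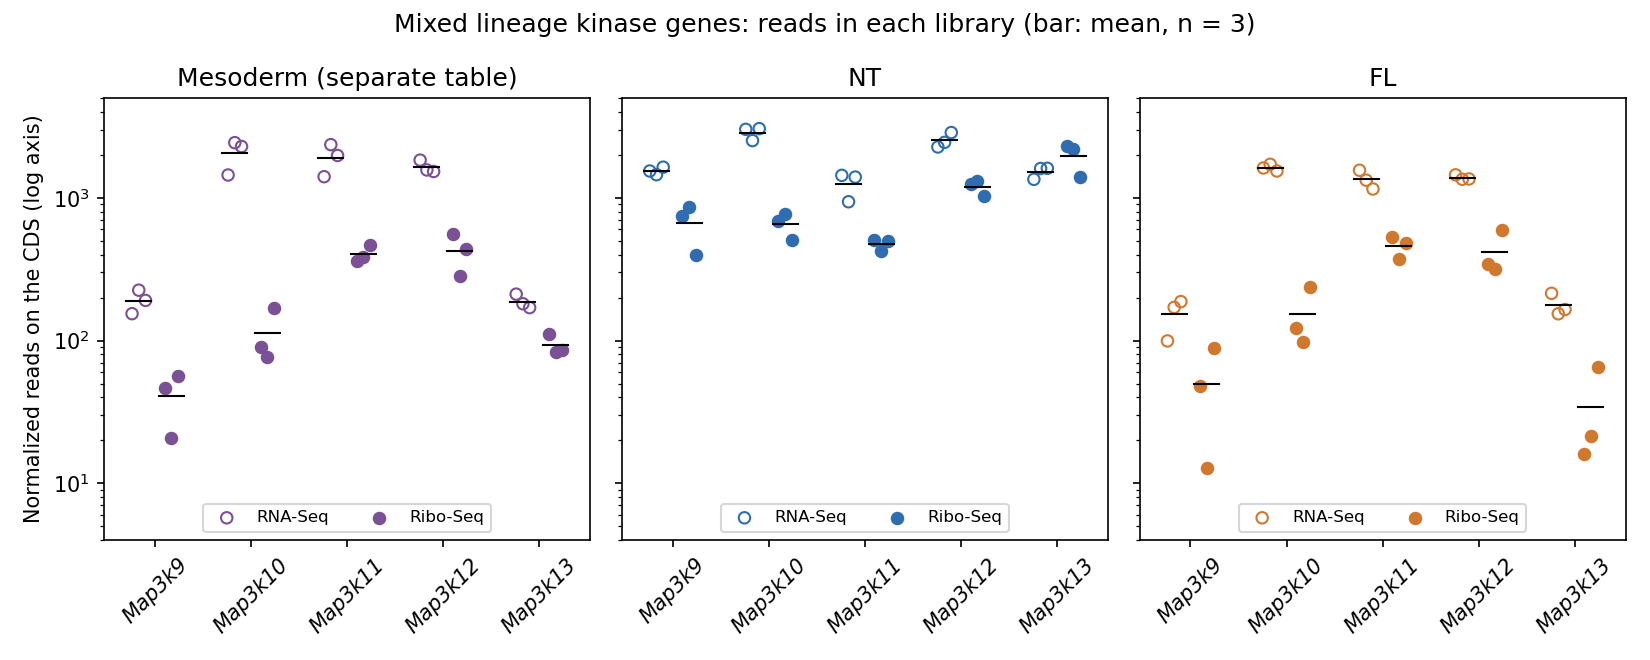
Normalized reads on the CDS of the 5 genes (log axis) in each RNA-Seq library (open points) and Ribo-Seq library (filled points) of the mesoderm, NT and FL, with the mean of 3 replicates as a bar. The mesoderm was normalized in a separate table, so its levels are not to be set against those of NT and FL; between NT and FL the points of *Map3k9* and *Map3k13* drop in both library types, whereas those of *Map3k11* overlap.

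In NT, *Map3k10* was again the member with the lowest TE, and it alone was TE-low, a call that 4.13% of the 11231 genes received. It had 3016, 2516 and 3051 normalized reads in RNA-Seq, the highest mean mRNA of the 5 members, and 690.3, 769.3 and 510.3 in Ribo-Seq. Its log2 TE was -2.17 (SE 0.29, adjusted p = 0.00036 by limma), 4.49-fold below the median gene. *Map3k11* had 1436, 938.2 and 1397 normalized reads in RNA-Seq and 505.3, 423.7 and 500.1 in Ribo-Seq. Its log2 TE of -1.41 (SE 0.23, adjusted p = 0.0013) differed from the median gene but by less than 3-fold.

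*Map3k9* had 1541, 1451 and 1639 normalized reads in NT RNA-Seq and 747.4, 866.8 and 400.1 in Ribo-Seq, the lowest of these in replicate 3. Its log2 TE of -1.30 (SE 0.54) did not pass the test (adjusted p = 0.09). *Map3k12*, the DLK gene, had 2270, 2445 and 2865 normalized reads in RNA-Seq and 1243, 1312 and 1026 in Ribo-Seq. Its log2 TE was -1.11 (SE 0.24, adjusted p = 0.0059), 2.16-fold below the median gene and so not TE-low. *Map3k13*, the LZK gene, was the single member with more normalized reads in Ribo-Seq than in RNA-Seq in NT. This held for the means, with 1347, 1605 and 1610 in RNA-Seq against 2299, 2204 and 1397 in Ribo-Seq, whereas replicate 3 alone had fewer in Ribo-Seq. TE lay at 0.31 (SE 0.41, adjusted p = 0.6), with a 95% interval from -0.58 to 1.20, and 65.7% of all genes had a lower value.

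Without the replicate 3 Ribo-Seq libraries, *Map3k10* was still the one TE-low member in NT, at -2.00 (adjusted p = 4.6e-06), where 3.9% of all genes were called. *Map3k13* was then at 0.53 (adjusted p = 0.074).

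In FL, 4 of the 5 members were TE-low, beside 13.4% of all genes. As the members were chosen with their mesoderm calls known, nothing is read from that count. *Map3k10* was the lowest here too, with 1618, 1716 and 1541 normalized reads in RNA-Seq and 121.9, 98.0 and 238.9 in Ribo-Seq. Its log2 TE was -3.51 (SE 0.29, adjusted p = 1e-05), 11.4-fold below the median gene, and 0.962% of all genes had a lower value. *Map3k11* had 1559, 1328 and 1152 normalized reads in RNA-Seq and 534.0, 373.0 and 482.2 in Ribo-Seq. Its log2 TE of -1.55 (SE 0.23, adjusted p = 0.00028) was 2.92-fold below the median gene, just short of the 3-fold limit. It crossed that limit when both replicate 3 Ribo-Seq libraries were left out, at -1.59, which made all 5 members TE-low, beside 18.2% of all genes.

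*Map3k9* was scarce in FL, with 99.4, 170.8 and 187.6 normalized reads in RNA-Seq and 48.1, 12.8 and 88.1 in Ribo-Seq. The Ribo-Seq values stand for 30, 6 and 59 reads. Its log2 TE of -1.92 (SE 0.54, adjusted p = 0.0087) rested on replicate 2, with -3.66 against -1.03 and -1.10 in the others, and without the Ribo-Seq library of replicate 2 it was -1.18 and no longer TE-low.

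*Map3k12* had 1448, 1348 and 1356 normalized reads in FL RNA-Seq and 343.1, 315.5 and 594.2 in Ribo-Seq. TE was at -1.79 (SE 0.24, adjusted p = 0.00017). *Map3k13* had 214.3, 154.1 and 165.0 in RNA-Seq, but its Ribo-Seq libraries held 10, 10 and 44 reads, or 16.0, 21.3 and 65.7 normalized reads. From these, log2 TE was -2.59 (SE 0.41, adjusted p = 0.00038), 6.04-fold below the median gene, with 3.28% of all genes lower. In FL *Map3k13* thus had the second lowest TE of the 5 members, whereas in NT it had the highest. For *Map3k9*, *Map3k10*, *Map3k12* and *Map3k13* the FL Ribo-Seq value of replicate 3 was the highest of its group and the NT one the lowest, so in these 4 genes the tissues lay closer together in replicate 3 than in replicates 1 and 2. Replicate 3 stood apart across all genes, and the share of all genes with this ordering was not counted, so it is not read as a trait of these 4.

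**Figure D2:**
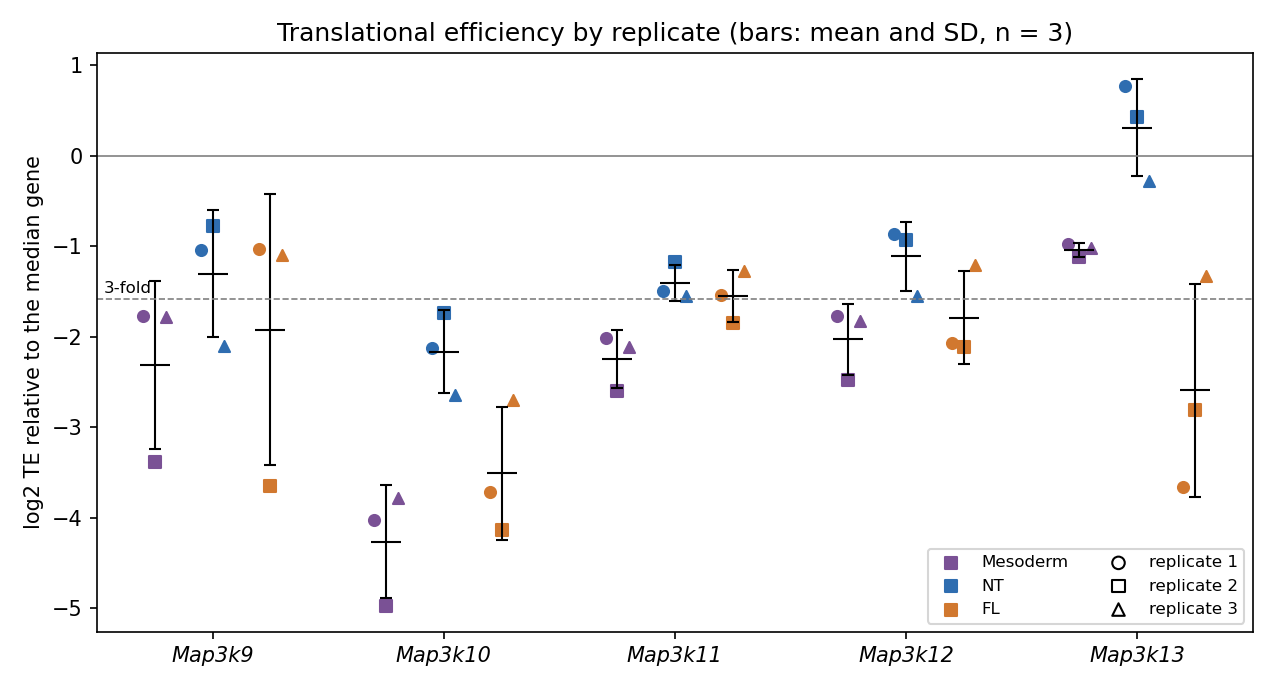
log2 TE of the 5 genes relative to the median gene (0) in the mesoderm, NT and FL, as 1 point for each replicate (Ribo-Seq and RNA-Seq libraries of the same number) with the mean and SD. Equal numbers did not deviate together in NT and FL, so points and SDs there rest on pairs that may be arbitrary. The dashed line marks 3-fold below the median; *Map3k10* lies below it in every replicate of all 3 tissues, and *Map3k13* lies near 0 in NT and at -1.33 to -3.66 in FL.

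Because longer coding sequences collect more reads, levels of different members were compared per kb of CDS, and only within a tissue. In mesoderm RNA-Seq the order was *Map3k11* (768.5 ± 192.4 normalized reads per kb), *Map3k10* (744.6 ± 193.4) and *Map3k12* (631.3 ± 64.4), whose ranges overlapped one after the other, followed at a distance by *Map3k13* (66.6 ± 7.6) and *Map3k9* (60.01 ± 11.23), which also overlapped. In mesoderm Ribo-Seq *Map3k12* (163.8 ± 53.0) and *Map3k11* (163.0 ± 22.1) led with overlapping ranges. *Map3k10* (40.7 ± 18.1) and *Map3k13* (33.2 ± 5.6) overlapped each other below them, and *Map3k9* (12.97 ± 5.80) was lowest. FL had the same order in RNA-Seq except at the top, with *Map3k10* at 588.8 ± 31.9, *Map3k11* at 540.9 ± 81.9 and *Map3k12* at 531.5 ± 21.4 overlapping, and *Map3k13* at 63.1 ± 11.4 and *Map3k9* at 48.1 ± 14.8 overlapping far below.

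In NT no member was scarce. *Map3k10* (1037 ± 109 normalized reads per kb) and *Map3k12* (970.2 ± 117.4) overlapped at the top of RNA-Seq. *Map3k13* (539.8 ± 53.3), *Map3k11* (504.8 ± 111.2) and *Map3k9* (486.8 ± 29.5) overlapped one after the other below them. In NT Ribo-Seq *Map3k13* was at the top (698.2 ± 175.8), with a range that met that of *Map3k12* (458.4 ± 57.3), and *Map3k10* (237.9 ± 48.1), *Map3k9* (211.7 ± 76.5) and *Map3k11* (191.3 ± 18.4) followed with overlapping ranges. In FL Ribo-Seq *Map3k11* (186.0 ± 33.0) and *Map3k12* (160.4 ± 59.0) overlapped, *Map3k10* (55.4 ± 27.3) was lower, and *Map3k9* (15.7 ± 11.9) and *Map3k13* (12.2 ± 9.7) overlapped at the bottom.

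As a share of the sum over the 5 members, *Map3k13* made up 15.3% ± 2.0 (SD, n = 3) of the mRNA per kb in NT but 38.5% ± 2.9 of the RPFs per kb. In FL it made up 3.55% ± 0.49 of the mRNA and 2.64% ± 1.41 of the RPFs. *Map3k10* made up less of the RPFs than of the mRNA in all 3 tissues. It was 32.4% ± 4.5 of the mRNA and 9.67% ± 3.07 of the RPFs in the mesoderm, 29.3% ± 1.7 and 13.2% ± 0.6 in NT, and 33.3% ± 1.9 and 12.5% ± 2.6 in FL. *Map3k11* and *Map3k12* together held most of the RPFs of the 5 members in the mesoderm and FL, with 40.1% ± 7.5 and 39.1% ± 7.8 in the mesoderm and 44.6% ± 9.0 and 37.0% ± 4.5 in FL. The sum over the 5 members was 3538 ± 301 normalized reads per kb in NT RNA-Seq and 1772 ± 109 in FL. In Ribo-Seq it was 1798 ± 343 in NT and 429.6 ± 121.8 in FL, and the ranges of the tissues did not overlap in either library type.

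**Figure D3:**
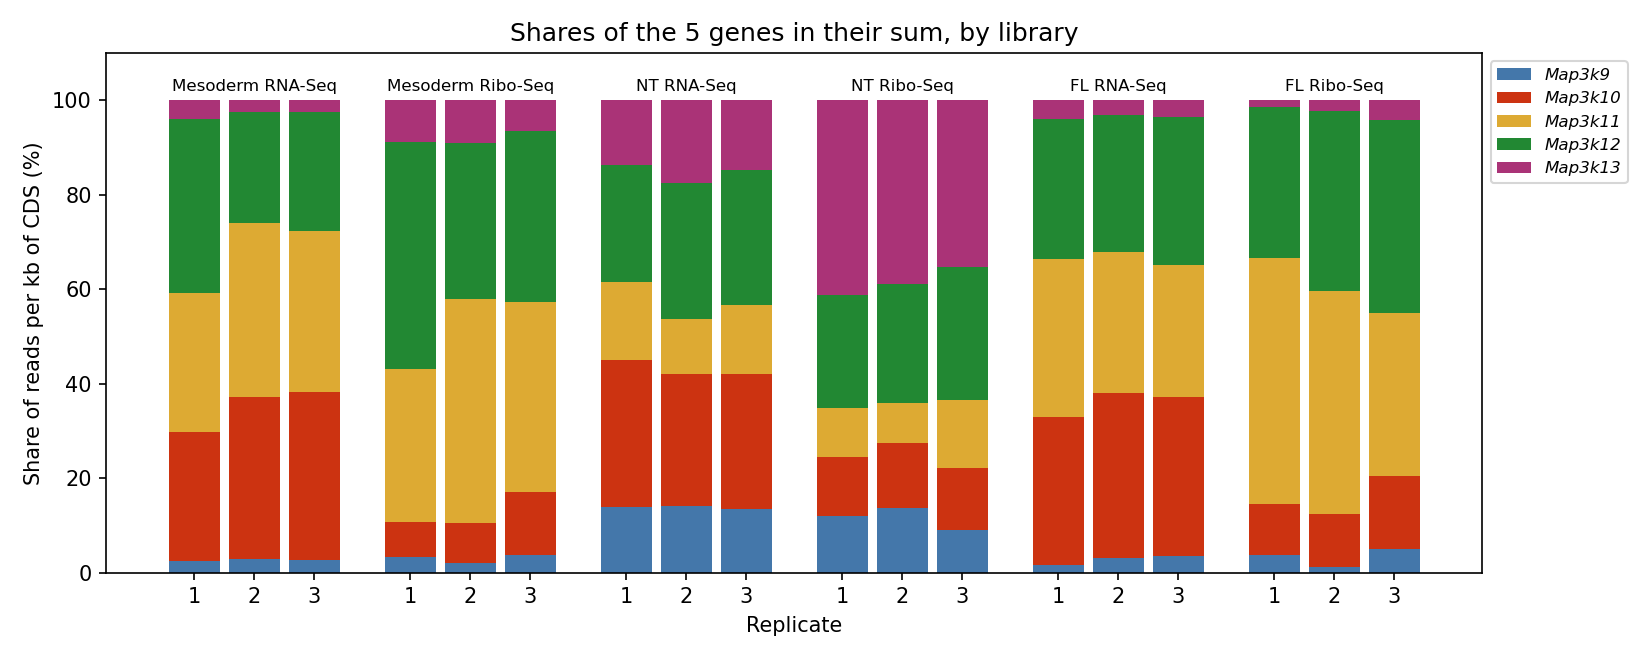
Share of each gene in the summed normalized reads per kb of CDS of the 5 genes (%), for the 18 libraries in groups of 3 replicates. *Map3k10* takes 27.3 to 35.6% of every RNA-Seq bar and 7.37 to 15.5% of every Ribo-Seq bar, and *Map3k13* takes 35.4 to 41.2% of the NT Ribo-Seq bars against 1.38 to 4.17% in FL.

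FL was then compared with NT gene by gene, as FL minus NT on the log2 scale. The test of mRNA asked for 2-fold and an adjusted p under 0.05, and 9.49% of all genes were lower in FL by this rule. Of the 5 members, *Map3k9* and *Map3k13* were lower. *Map3k9* fell by 3.38 (SE 0.54, adjusted p = 0.00035), and *Map3k13* fell by 3.10 (SE 0.41, adjusted p = 7.3e-05). In both, the lowest NT library was more than 6-fold above the highest FL library (7.74-fold for *Map3k9* and 6.29-fold for *Map3k13*). The neuronal marker sum given above moved in the same direction. In bulk tissue, fewer cells of a type and less RNA per cell cannot be told apart, and the part of tissue makeup in these differences was not tested.

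*Map3k12* and *Map3k10* also had less mRNA in every FL library than in any NT library, an ordering that 24.1% of all genes showed, but neither reached 2-fold. The difference was -0.86 (SE 0.24, adjusted p = 0.018) for *Map3k12* and -0.81 (SE 0.29, adjusted p = 0.063) for *Map3k10*. *Map3k11* overlapped between the tissues, with a difference of 0.11 and a 95% interval from -0.39 to 0.61.

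In RPFs, 4 members were lower in FL by the same rule, beside 17.8% of all genes. *Map3k13* fell by 6.03 (SE 0.41, adjusted p = 1.2e-07), which is 65.4-fold, and its lowest NT library lay 21.3-fold above its highest FL library. *Map3k9* fell by 4.03 (SE 0.54, adjusted p = 6.1e-05). *Map3k10* fell by 2.18 (SE 0.29, adjusted p = 5.9e-05), and *Map3k12* fell by 1.56 (SE 0.24, adjusted p = 0.00019). *Map3k11* was again level, at -0.05 with a 95% interval from -0.55 to 0.45. The same 4 members were called without the replicate 3 Ribo-Seq libraries, beside 26.2% of all genes, and *Map3k13* then stood at -6.85.

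The change in TE is the part of the RPF difference that the mRNA difference does not cover, tested as the interaction of library type with tissue at 2-fold and an adjusted p under 0.2. By limma, 0.276% of all genes had a lower TE in FL at these limits. *Map3k13* was the one member among them, with -2.93 (SE 0.58, adjusted p = 0.13, 95% interval from -4.19 to -1.68). Its RPFs thus fell 7.63-fold further than its mRNA. The call depended on the libraries and the model. Neural tube cells were, like the mesoderm cells, divided between the library types, although equal replicate numbers did not deviate together. With the replicate number as a block within each tissue the adjusted p was 0.26, with one block over both tissues it was 0.28, and leaving out any single library other than a replicate 3 Ribo-Seq library gave between 0.25 and 0.44, while the value stayed between -2.54 and -3.03. DESeq2 gave an adjusted p of 0.00047 and edgeR 0.16. Over all genes, DESeq2 called 286 genes lower in FL and edgeR 21, against 31 by limma. The study's own DESeq model, at the same limits, called more genes of higher TE in NT than any of these fits of all libraries. Without both replicate 3 Ribo-Seq libraries the limma difference of *Map3k13* was -3.75 (adjusted p = 2.9e-06).

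The other members did not pass in the limma fit of all 12 libraries. *Map3k10* had a difference of -1.37 (SE 0.41, adjusted p = 0.29), with a 95% interval from -2.26 to -0.48. By DESeq2 on the same libraries it was called, at -1.28 (adjusted p = 0.12), and by edgeR it was not, at -1.28 (adjusted p = 0.3). *Map3k12* was at -0.70 (SE 0.34, adjusted p = 0.29) and *Map3k9* at -0.65 (SE 0.76, adjusted p = 0.6). The latter value rested on FL Ribo-Seq replicate 2, without which it was 0.11. Without the replicate 3 Ribo-Seq libraries these 3 were called as well, at -1.91, -1.09 and -1.57 with adjusted p of 3.5e-05, 0.00083 and 0.044. In that fit, however, 22.2% of all genes had a lower TE in FL, against 0.276% with all libraries. *Map3k11* stayed at -0.17 in both fits (adjusted p = 0.76 and 0.69), with a 95% interval from -0.87 to 0.54 in the fit of all libraries.

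**Figure D4:**
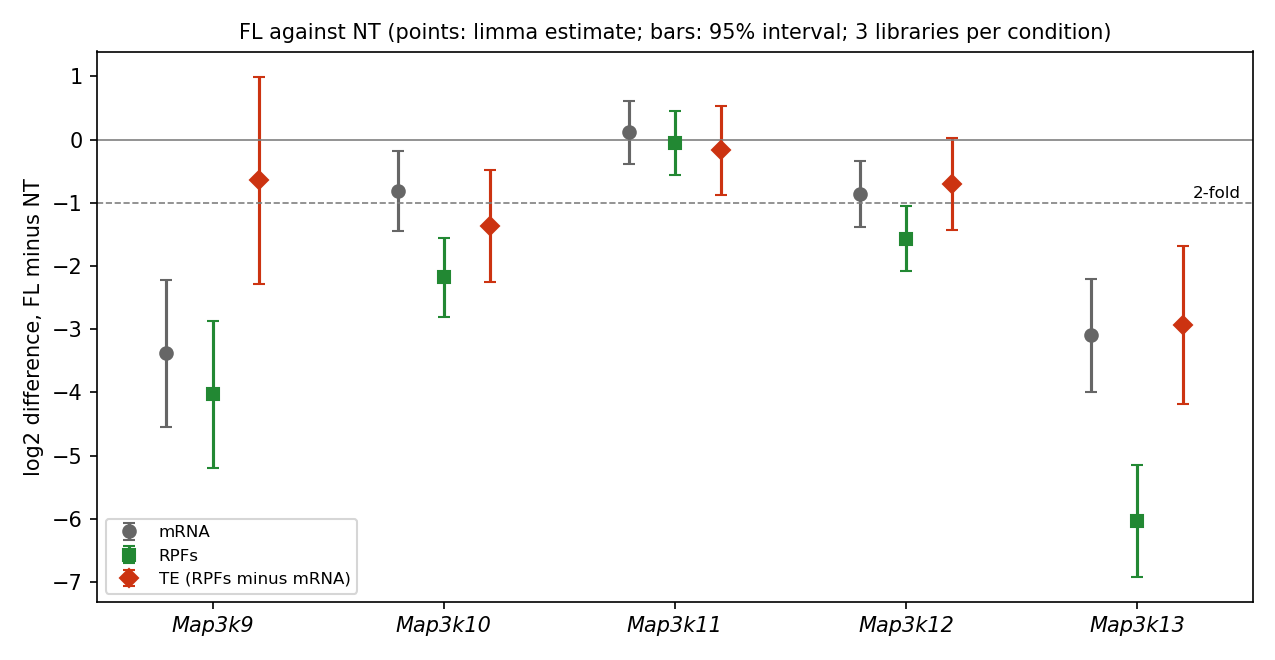
Difference between FL and NT (log2, FL minus NT) of mRNA, RPFs and TE for the 5 genes, as the limma estimate with its 95% interval from 3 libraries per condition, with 2-fold as a dashed line. The RPF points of *Map3k13* (-6.03) and *Map3k9* (-4.03) lie lowest, and the 3 intervals of *Map3k11* all include 0.

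The rest of the MAP kinase relay was followed in lists of 7 other MAP3K, 7 MAP2K and 13 MAPK genes. Among the other MAP3Ks, *Map3k14* (NIK, a kinase of the noncanonical NF-κB pathway) was TE-low in the mesoderm, at -2.28, 1 of 7, beside 10.9% of all genes, and the median log2 TE of the list was -1.51. In NT, 1 of 6 tested genes was TE-low (4.13% of all genes), *Map3k3* at -1.87 (adjusted p = 6.9e-05). In FL, 3 of 6 were TE-low (13.4% of all genes), *Map3k2* at -2.00, *Map3k4* at -1.88 and *Map3k14* at -1.90, and the medians were -0.90 in NT and -1.67 in FL. Low TE in this list went beyond the calls. By limma, 6 of 7 lay on the low side at an unadjusted p under 0.05 in the mesoderm, 3 of 6 in NT and 5 of 6 in FL, with 0 on the high side. *Map3k4* at -1.58 in the mesoderm (adjusted p = 0.00031) fell just short of the 3-fold limit. The share of all genes on the low side at that p was not counted.

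The MAP2Ks, the tier below, received no TE call. By limma, edgeR and DESeq2 alike, 0 of 7 were TE-low or TE-high in any tissue. With 10.9%, 4.13% and 13.4% of all genes TE-low in the mesoderm, NT and FL, a count of 0 is near that background. An unadjusted p under 0.05 was reached in the mesoderm by 2 on the low side and 2 on the high side. In both NT and FL it was reached by 1 and 2. In the mesoderm, *Map2k6* (0.86, adjusted p = 0.001 by limma) and *Map2k1* (0.49, adjusted p = 0.023) lay above the median gene. *Map2k5* (-0.71, adjusted p = 0.0036) and *Map2k7* (-0.63, adjusted p = 0.011) lay below it. The medians of log2 TE of the 7 were -0.22, -0.35 and 0.10. *Map2k4* was at 0.23 in the mesoderm, 0.14 in NT and -0.15 in FL, and *Map2k7* at -0.63, -0.43 and -0.60. In mRNA, *Map2k3* and *Map2k6*, which activate p38, were higher in FL than in NT, by 1.04 (adjusted p = 0.0025) and 1.56 (adjusted p = 0.00018), a rule that 7.82% of all genes met.

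Of the MAPKs, *Mapk4* (-1.98) and *Mapk7* (-1.72) were TE-low in the mesoderm, 2 of 13, beside 10.9% of all genes. None of the 11 tested was TE-low in NT or FL by limma, edgeR or DESeq2, beside 4.13% and 13.4% of all genes by limma. A count of 0 of 11 is not far from these shares. On the low side, 6 in NT and 4 in FL reached an unadjusted p under 0.05 by limma. Some of these also passed after adjustment and missed the call by the 3-fold limit alone. Among them were *Mapk6*, at -1.14 in NT (adjusted p = 0.0041) and -1.51 in FL (adjusted p = 0.0003), and *Mapk7*, at -1.23 (adjusted p = 0.0039) and -1.52 (adjusted p = 0.00043). *Mapk15* was TE-high in NT and FL, at 1.90 and 2.95, a call that 0.436% of all genes received in NT and 6.25% in FL. The JNK genes *Mapk8* and *Mapk9* had a log2 TE of -0.58 and -0.56 in the mesoderm, 0.50 and -0.72 in NT, and -0.51 and -0.96 in FL, none of them called. *Mapk10* was in the mesoderm table alone, at -1.12. *Mapk8* mRNA was lower in FL, with a difference of -1.05 (adjusted p = 0.04), as was that of *Mapk4* (-2.67) and *Mapk11* (-2.33). These were 3 of 11 tested, where 9.49% of all genes had lower mRNA in FL. No gene of the 3 lists (0 of 24 tested) passed the test of a change in TE by limma, edgeR or DESeq2, and an unadjusted p under 0.05 was reached by 1 that was lower and 2 that were higher in FL. Since 0.276% of all genes had a lower TE in FL by limma, a count of 0 is near that background. Their median change was -0.20, beside 0.01 over all genes.

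Values were also read for genes that act around the mixed lineage kinases, whose symbols are at hand largely because the study called them. *Mapk8ip1* and *Mapk8ip3* encode the scaffolds JIP1 and JIP3, which bind components of the JNK relay, mixed lineage kinases among them. *Mapk8ip1* had a log2 TE of -1.39 in the mesoderm, -1.06 in NT and -0.97 in FL, and *Mapk8ip3* -2.43, -0.62 and -2.67. *Mycbp2*, a ubiquitin ligase that limits DLK in neurons, had -2.54, -1.12 and -3.40. *Jun*, the transcription factor after which JNK is named, had 0.73, 0.04 and 1.58. The upstream Map4k genes *Map4k1* to *Map4k4* ranged from -2.58 to -1.45 in the mesoderm, from -1.95 to -0.75 in NT and from -2.07 to -0.85 in FL. *Taok1* to *Taok3* ranged from -2.58 to -1.35, from -1.34 to -0.69 and from -2.50 to -0.46.

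The genes most like each member in TE were sought among 2925 genes with a symbol and a mean of at least 100 normalized reads in RNA-Seq of each tissue, by the root mean square difference in log2 TE over 9 pairs of libraries. Pairs were libraries of equal number, which did not deviate together in NT and FL. *Map3k12* had the closest neighbours, *Sipa1* (0.15) and *Usp49* (0.17), and *Map3k11* was nearest to *Ikzf4* (0.18) and *Dgkz* (0.20). *Map3k13* was nearest to *Fat3* (0.40), with a log2 TE of -1.10 in the mesoderm, 0.42 in NT and -2.52 in FL, and to *Pde4dip* (0.46). *Map3k10* was nearest to *Dmpk* (0.50) and *Spef1* (0.52), and *Map3k9* to *Ttbk1* (0.57) and *Tesk2* (0.59). These are descriptions of likeness, and genes with a symbol are largely those the study listed.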

How the data were processed

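The deposited signal values are normalized reads. The authors trimmed adapters with cutadapt, removed rRNA, tRNA and snRNA reads, kept reads mapping uniquely to the canonical UCSC known gene isoforms (mm10), counted the CDS (15 codons at its start and 5 at its end left out), and scaled these counts by DESeq size factors, separately for the mesoderm table and for the NT and FL table. In all 18 libraries 100.0% of values were whole multiples (within 0.006) of the worth of 1 read, which gave 11000015 to 50136443 reads per library. Between 6 and 59 reads lie behind the FL Ribo-Seq values of *Map3k9* and *Map3k13*, which limits their precision.

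log2(normalized reads + 1) was fitted with limma 3.58.1 (R 4.3.3), with a variance trend and Benjamini-Hochberg adjustment over all genes of a table. Adding 1 understates changes of genes with few reads. The mesoderm fit had the replicate number as a block, since the sorted cells of a replicate were divided between the library types, and deviations of equal numbers correlated at 0.743, 0.579 and 0.573. The NT and FL fit had 1 mean for each condition over 12 libraries and no block, as the study's model for these tissues names no replicate term. Neural tube cells were also divided between the library types, and fits with a block are given as alternatives. TE within a tissue was centred on the median gene. edgeR 4.0.16 and DESeq2 1.42.0 were run on the recovered reads as alternatives, beside other pseudocounts (0.1 and 8), a minimum mean of 100 normalized reads, replicate blocks and fits without single libraries. The limma, edgeR and DESeq2 fits were run on simulated reads for TE in the mesoderm and for the TE and RPF differences between FL and NT. TE within NT or FL, mRNA differences, the other settings and a library that stands apart were not simulated. Python 3.11.15 was used for the rest.

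Levels per kb used the CDS without the 15 and 5 codons left out. Symbols came from supplementary tables of the study, which name 3429 mesoderm genes and 3285 NT and FL genes, and transcript features from GENCODE vM21 on GRCm38, taking for each gene the principal CCDS transcript with the longest 5′ leader. These isoforms can differ from those the authors counted. The 5 members and the lists of MAP3K, MAP2K, MAPK, neighbouring and marker genes were chosen with earlier results of these data known. All members are named, genes of the lists may be named, and likeness names the 2 nearest genes for each member.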

Additional observations from a re-analysis of the deposited data

Results flagged for a closer look

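By limma, *Map3k13* was the one member whose ratio of RPFs to mRNA differed between the tissues in the test of the interaction. The difference, FL minus NT, was -2.93 on the log2 scale (SE 0.58, adjusted p = 0.13 by limma, 3 libraries per condition). With libraries of the same number paired, TE lay between -0.27 and 0.78 in NT and between -3.66 and -1.33 in FL. The share of all genes with such separate ranges was not counted. With a replicate block the adjusted p was 0.28, or 0.26 with the block within each tissue, and the call was lost. DESeq2 called *Map3k10* as well (-1.28, adjusted p = 0.12). The FL value of *Map3k13* rests on 10, 10 and 44 reads in Ribo-Seq.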

How the results depend on the processing

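For the 5 members, 506 of 535 values under an alternative kept the direction and the side of the threshold reported (for mesoderm TE, which has no test, they moved by less than 1 SD of the replicates). Of the others, 13 lost a call, 12 gained one and 4 changed sign. The calls lost were 12 for the TE change of *Map3k13* and 1 for TE of *Map3k9* in FL, and the cause was not tested. Many of the alternatives could not move the value itself, only its p. For example, log2 TE of *Map3k9* in NT stayed at -1.302 without any single FL library and with either replicate block. Values that were not called in either fit also count as kept, so the count of 506 overstates how firm the results are.

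The number of members with a lower TE in FL than in NT was 1. It was 0 with the replicate number as a block and 0 with that block within each tissue, 2 by DESeq2 (*Map3k10* and *Map3k13*), 4 without both replicate 3 Ribo-Seq libraries, and 0 to 3 when a single library was left out (0 for any library other than these). Over all genes the same test gave 31 genes, 5 with the replicate block, 3 with the block within each tissue, 286 by DESeq2, 2498 without both replicate 3 Ribo-Seq libraries, and 1 to 2219 without a single library, with 2219 in the fit without FL Ribo-Seq replicate 3 and 1688 without NT Ribo-Seq replicate 3. The count of TE-low members in NT ranged from 1 to 2 when a library was left out, with 2 without NT RNA-Seq replicate 2, where *Map3k11* was called at -1.61.

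Signs changed for 4 differences. Leaving out single libraries, the TE change of *Map3k9* ranged from -1.24 to 0.11 (the latter without FL Ribo-Seq replicate 2) and that of *Map3k11* from -0.28 to 0.032, the mRNA change of *Map3k11* from -0.084 to 0.22 and its RPF change from -0.16 to 0.10. Counting replicate numbers as a block changed no other call of a member. The check used did not show that equal replicate numbers pair the NT and FL libraries. It cannot exclude such pairing, because each condition mean rests on 3 libraries and the replicate 3 Ribo-Seq libraries stood apart. Deviations from the condition means of Ribo-Seq and RNA-Seq with 1 number correlated at -0.281, 0.349 and 0.0465 in NT and at 0.0486, 0.116 and 0.0918 in FL. Between NT and FL, taken from the same embryos, they correlated at -0.294, -0.502 and -0.578 in Ribo-Seq and at -0.0221, -0.215 and -0.237 in RNA-Seq. In the mesoderm, dropping the block left 4 members TE-low.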
